A study of Danio rerio with 14 samples.

Results

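Transcript levels of 3 genes were followed in zebrafish embryos of 2 lines with and without the dioxin TCDD. The genes were an apelin receptor gene printed as APLNR (ENSDARG00000004447), klf2a (ENSDARG00000042667) and klf2b (ENSDARG00000040432). They were picked by gene ID out of the 32105 genes listed in every library, and all 3 were among the 21606 genes with enough reads to be tested. The choice was made with results of these libraries in view, namely a lower APLNR level after TCDD in the null line and a klf2b response to TCDD that looked unlike between the lines. The TCDD effects of the 3 genes, and the differences built on them, are therefore given as descriptions with no test. The test kept for them is the difference between the lines averaged over both exposures. By its design this contrast is independent of the TCDD effects only where the groups have equal spread. For all 3 genes the spread in the null line was larger with TCDD than without, as given below.

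Apelin receptors are G protein-coupled receptors of endothelial and cardiac progenitor cells. They bind the peptides Apelin and Apela (also called Toddler or Elabela), and in zebrafish they guide cells toward the midline and heart field during gastrulation and later act in the growth of vessels. KLF2 is a zinc finger transcription factor whose gene is switched on in endothelial cells by the drag of flowing blood, through a kinase cascade that ends in MEF2 factors. Zebrafish has a pair of KLF2 genes, klf2a and klf2b, and klf2a is widely used as a readout of blood flow in the vessels and in the endocardium that forms the heart valves. TCDD acts through the aryl hydrocarbon receptor (AHR) and is known in zebrafish embryos for heart malformation and slowed circulation. In the gene table used for names, 2 other IDs stand for the well-known receptors aplnra and aplnrb, and the newer RefSeq table lists another receptor gene, aplnr2, without an Ensembl ID. The ID printed as APLNR was assigned by hand to the aplnr2 entry of the apelin list, and neither table links it to a RefSeq gene.

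The embryos were of the Tupfel longfin strain. Wild-type embryos and embryos of an ahrra-null line, whose gene for an AHR repressor had been mutated with zinc finger nucleases, were exposed to 0.01% DMSO or to 2 nM TCDD from 6 h post-fertilization (hpf) for 1 h and were sampled at 72 hpf as whole animals. There were 3 wild-type DMSO, 3 wild-type TCDD, 4 ahrra-null DMSO and 4 ahrra-null TCDD libraries, 14 in all. Levels are CPM, that is counts per 1 M reads (M for mega) of a TMM-scaled library size, given as mean ± SD of the 3 or 4 libraries in each group. Differences are log2 fold changes ± SE, taken as TCDD minus DMSO or as ahrra-null minus wild type. A gene is called when its p from edgeR's quasi-likelihood test, adjusted by Benjamini-Hochberg over all 21606 genes, is under 0.05. Statements that groups do not overlap, or lie above or below others, only describe these libraries. The share of all genes that separate in this way was not counted, and genes that are not called can separate too. The labels name neither the clutch nor the number of embryos of a library, so each p-value speaks of the scatter among these libraries, part of which may be technical. For the same reason the null allele cannot be told apart from other differences between the stocks or clutches.

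Library totals ran from 16.9 to 23.1 M reads. The AHR target gene CYP1A1 (ENSDARG00000098315) rose in both lines (log2 7.59 and 7.83), and within the ahrra-null TCDD group replicate 15 stood lowest for it. The ahrra transcript was not lower in the null line (0.936 CPM in wild type and 1.14 CPM in ahrra-null with DMSO, and 17.5 and 43.1 CPM with TCDD), so it does not check the genotype labels. With TCDD the ahrra line difference of 1.3 ± 0.28 was called (adjusted p = 0.00714, edgeR's quasi-likelihood test). Over all genes, TCDD changed 0.856% of those tested in wild-type and 1.18% in null embryos. The lines differed at 39.7% of the genes when both exposures were averaged, which is the background against which each difference between lines has to be read. No gene was called for the interaction of genotype and TCDD, while DESeq2 called 7 and limma voom 2. In edgeR 1117 of 21606 genes had an unadjusted p under 0.05, near the share that chance alone gives at this threshold.

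APLNR was the gene with the fewest reads of the 3, at 31 to 96 counts per library. In wild-type embryos it measured 2.35, 3.01 and 2.75 CPM with DMSO and 2.63, 2.28 and 1.98 CPM with TCDD. In ahrra-null embryos it measured 4.54, 3.99, 3.57 and 4.30 CPM with DMSO and 2.79, 1.83, 2.73 and 1.85 CPM with TCDD. Every ahrra-null DMSO library lay above every library of the other 3 groups, and those 3 groups overlapped one another between 1.83 and 3.01 CPM. The group means were 2.70 ± 0.335, 2.30 ± 0.325, 4.1 ± 0.419 and 2.30 ± 0.533 CPM in the order given.

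In these libraries the APLNR mean of the null line thus went from the highest group mean, with DMSO, to the level of wild-type embryos with TCDD. The gene was picked with this fall in view, which favours a high ahrra-null DMSO mean. A higher starting level is therefore a description with no test. The log2 difference with TCDD was -0.84 ± 0.16 in ahrra-null, a 0.56-fold level, and -0.22 ± 0.19 in wild type, where the groups overlapped. The difference between these effects was -0.61 ± 0.25. Between the lines APLNR stood 0.60 ± 0.17 higher in the null line with DMSO and -0.01 ± 0.19 with TCDD. Averaged over exposures the difference was 0.30 ± 0.13 and was not called (adjusted p = 0.0638, edgeR's quasi-likelihood test). It was called when wild-type TCDD replicate 6 was left out (0.36, adjusted p = 0.0457 in the same edgeR test), and likewise when ahrra-null TCDD replicate 14 (0.35, adjusted p = 0.0377) or 16 (0.34, adjusted p = 0.0402) was. These libraries held the highest wild-type TCDD level and the lowest ahrra-null TCDD levels. In 15 of 18 alternative settings the averaged difference stayed uncalled. The least deeply covered value, 31 reads or 1.85 CPM, has an exact Poisson 95% interval of 1.25 to 2.62 CPM from counting alone, which reaches into the range of wild-type DMSO. In whole embryos, fewer cells of a type and less RNA per cell cannot be told apart.

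**Figure D1:**
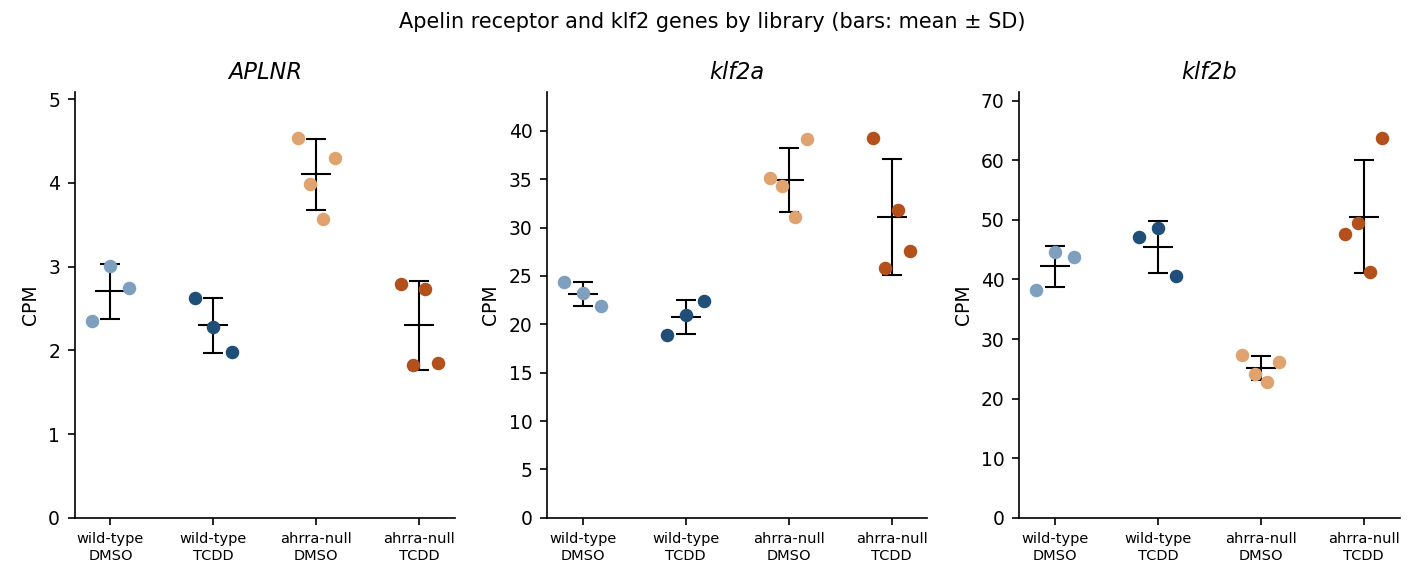
CPM of APLNR, klf2a and klf2b in each of the 14 libraries (points), with the mean and SD of each group (bars); each panel has its own axis starting at 0. APLNR is highest in the 4 ahrra-null DMSO libraries (3.57 to 4.54 CPM), klf2a is higher in both ahrra-null groups than in both wild-type groups, and klf2b is lowest in the 4 ahrra-null DMSO libraries (22.8 to 27.3 CPM).

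klf2a differed between the lines, while the exposures overlapped within each line. Wild-type embryos gave 24.4, 23.2 and 21.9 CPM with DMSO and 18.9, 21.0 and 22.4 CPM with TCDD. Null embryos gave 35.1, 34.3, 31.1 and 39.2 CPM with DMSO and 39.3, 25.8, 31.8 and 27.6 CPM with TCDD. All 8 ahrra-null libraries, from 25.8 CPM upward, lay above all 6 wild-type libraries, which reached 24.4 CPM. Wild-type means were 23.2 ± 1.22 CPM with DMSO and 20.7 ± 1.76 CPM with TCDD, and null means were 35.0 ± 3.33 and 31.1 ± 5.99 CPM.

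The klf2a difference between lines averaged over exposures was 0.59 ± 0.08, or 1.51-fold (adjusted p = 3.34e-05, edgeR's quasi-likelihood test), and was called as higher, as were 19.3% of all genes. The differences at each exposure share libraries with the TCDD effects and are given with no test. The difference was 0.60 ± 0.12 with DMSO, where 21.6% of all genes were called and 9.91% were called as higher. With TCDD it was 0.59 ± 0.12, where 25.8% were called and 12.7% were called as higher. The TCDD differences were -0.16 ± 0.13 in wild type and -0.17 ± 0.11 in ahrra-null, with an interaction of -0.01 ± 0.17.

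klf2b differed from both. Wild-type embryos gave 38.3, 44.6 and 43.8 CPM with DMSO and 47.2, 48.6 and 40.5 CPM with TCDD. Null embryos gave 27.3, 24.1, 22.8 and 26.1 CPM with DMSO and 47.7, 49.5, 41.2 and 63.8 CPM with TCDD. The 4 ahrra-null DMSO libraries lay below every other library, and the other 3 groups overlapped between 38.3 and 63.8 CPM. Wild-type means were 42.2 ± 3.45 CPM with DMSO and 45.4 ± 4.37 CPM with TCDD. Null means were 25.1 ± 2.00 and 50.6 ± 9.53 CPM, the TCDD group having the widest spread of the 4.

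The klf2b level with TCDD was thus 2.01 times that with DMSO in the null line (log2 1.01 ± 0.11), and the difference in wild type was 0.11 ± 0.13. The interaction was 0.90 ± 0.17. Between lines klf2b was -0.75 ± 0.12 with DMSO and 0.15 ± 0.12 with TCDD. The averaged difference of -0.30 ± 0.08 was called as lower (adjusted p = 0.0118, edgeR's quasi-likelihood test), as were 20.4% of all genes, and it averages a lower level with DMSO and an overlapping level with TCDD. The klf2b spread was unequal, with an SD of 7.97% of the mean in ahrra-null DMSO and 18.8% in ahrra-null TCDD. In the same groups it was 9.51% and 19.3% for klf2a and 10.2% and 23.2% for APLNR. The averaged tests of all 3 genes may therefore not be free of the choice. Across these libraries APLNR and klf2b stood apart from the rest in the same group, ahrra-null DMSO, on opposite sides. Both were picked with their TCDD responses in view, which favours this pattern, so it is no result.

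Higher klf2a and lower klf2b in ahrra-null DMSO embryos summed to a level that overlapped wild type. The sum of klf2a and klf2b was 65.4 ± 2.62 CPM in wild-type DMSO, 66.2 ± 3.40 in wild-type TCDD and 60.0 ± 4.95 in ahrra-null DMSO. In ahrra-null TCDD the sum was 81.7 ± 8.92 CPM, and its lowest library, at 73.0 CPM, lay above those of the other groups. The klf2a mean was not higher with TCDD in that line, and klf2b was picked with its response in view. The sum and the shares that follow are therefore descriptions with no test. Of the reads of both genes klf2b held 64.5 ± 2.97% and 68.6 ± 3.71% in wild type with DMSO and TCDD, 41.8 ± 1.58% in ahrra-null DMSO and 61.7 ± 7.26% in ahrra-null TCDD. The share was 40.0 to 43.7% in the ahrra-null DMSO libraries and at least 54.8% in every other library. Nothing in the sources used here says how reads that match both paralogs were counted.

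**Figure D2:**
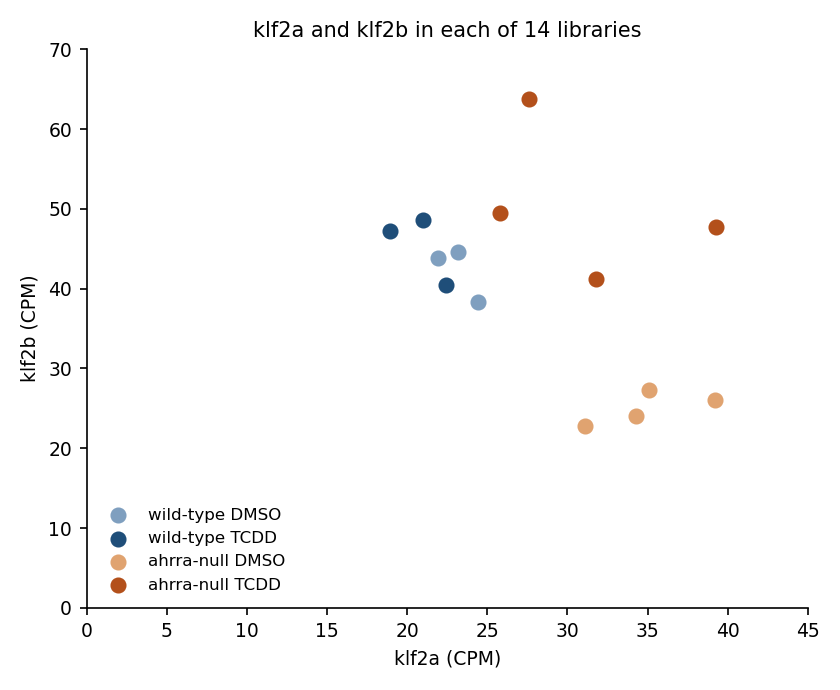
CPM of klf2b (vertical axis) against klf2a (horizontal axis) in each of 14 libraries, coloured by group, with both axes linear from 0. The 4 ahrra-null DMSO libraries form a set at 31.1 to 39.2 CPM of klf2a and 22.8 to 27.3 CPM of klf2b, the 6 wild-type libraries lie at lower klf2a and higher klf2b, and the ahrra-null TCDD libraries are spread over 25.8 to 39.3 CPM of klf2a.

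Over the 14 libraries log2 CPM of APLNR and klf2b had a Pearson correlation of -0.84, that of APLNR and klf2a 0.60 and that of klf2a and klf2b -0.53. These values mostly restate the group means just given. As deviations from the group means the correlations were -0.13, 0.53 and -0.29. They are descriptions over libraries that share groups and depth scaling.

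The other receptors and the ligands had smaller TCDD differences than APLNR had in ahrra-null, and none was called. APLNR was picked with that difference in view, so its larger size follows from the choice and is no result. aplnra (ENSDARG00000002172), a receptor of gastrulation and vessel growth, was at 20.4 ± 0.877 CPM with DMSO and 20.2 ± 2.30 CPM with TCDD in wild-type embryos, and at 17.1 ± 2.07 and 16.6 ± 1.39 CPM in null embryos. It was lower in the null line averaged over exposures (-0.27 ± 0.07, adjusted p = 0.0025, edgeR's quasi-likelihood test), and its TCDD differences were -0.02 ± 0.10 and -0.05 ± 0.09. aplnrb (ENSDARG00000036670), its paralog, was at 22.3 ± 3.32 and 19.0 ± 1.03 CPM in wild-type embryos, and at 24.9 ± 2.28 and 21.4 ± 2.33 CPM in null embryos. Its TCDD differences were -0.23 ± 0.11 and -0.22 ± 0.09, and neither was called (adjusted p = 0.562 and 0.372, edgeR), nor was its averaged difference between lines of 0.17 ± 0.07 (adjusted p = 0.0605, edgeR).

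Of the ligands, APLN (ENSDARG00000053279), which encodes Apelin, stood at 112 ± 0.797 CPM with DMSO and 113 ± 1.21 CPM with TCDD in wild-type embryos, and at 120 ± 4.42 and 124 ± 5.12 CPM in null embryos. The line difference of 0.12 ± 0.04 was called (adjusted p = 0.0114, edgeR's quasi-likelihood test), a change of 1.08-fold. apela (ENSDARG00000094729), which encodes the early ligand of the receptors, was near 1 CPM in every group (1.06, 0.914, 1.09 and 0.82 CPM) and was not called in any contrast. As a share of the reads of the 3 receptor genes, APLNR made up 5.94 ± 0.352% and 5.54 ± 0.885% in wild type, 8.91 ± 1.00% in ahrra-null DMSO and 5.73 ± 1.36% in ahrra-null TCDD.

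**Figure D3:**
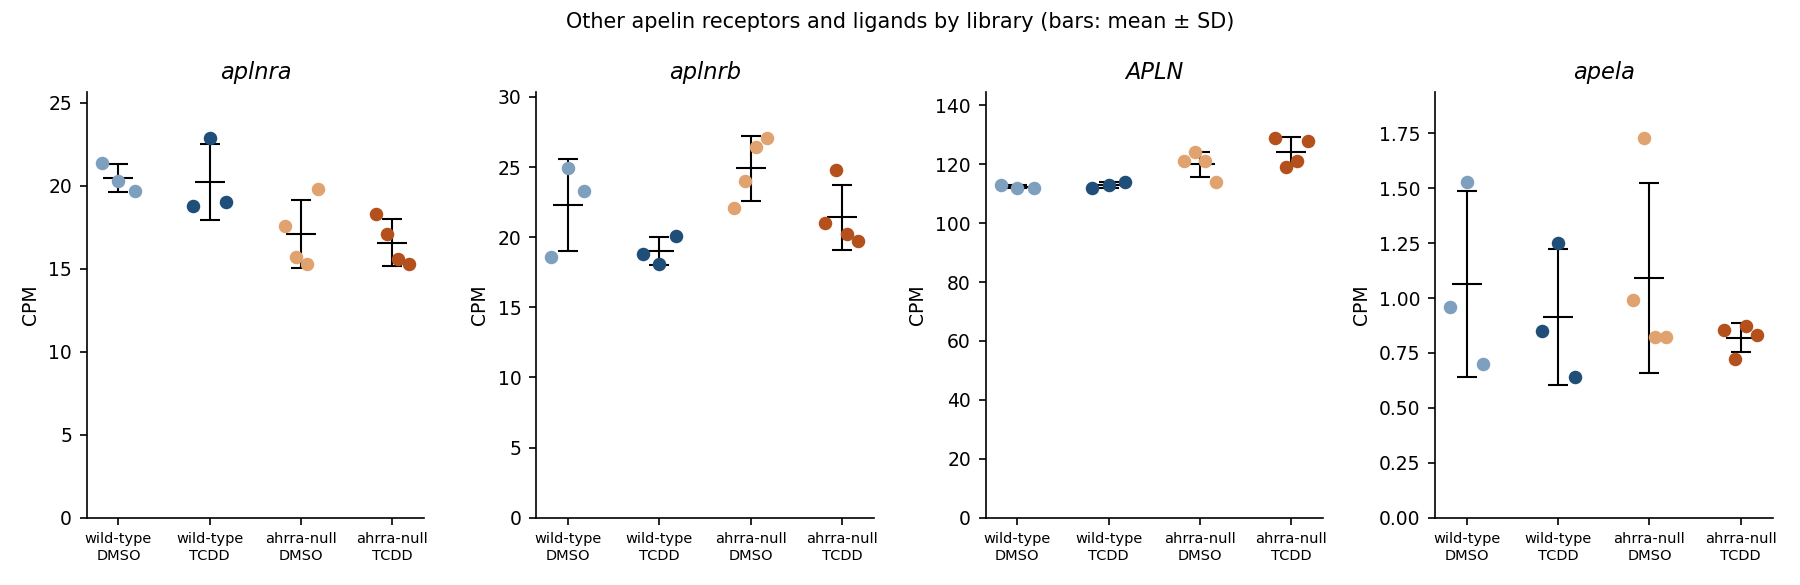
CPM of the receptors aplnra and aplnrb and of the ligands APLN and apela in each library (points), with group means and SD (bars); each panel has its own axis starting at 0. the means of aplnra are lower in both ahrra-null groups, aplnrb overlaps between the exposures of each line, APLN differs by a few CPM between lines, and apela is low throughout, at group means of 0.82 to 1.09 CPM.

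This gene list and those that follow were written with earlier results of these data known. Their counts beside the shares of all genes are therefore descriptions. Across a list of 17 tested apelin signalling genes without APLNR, 0 were called with TCDD in either line, against 0.856% and 1.18% of all genes, and the median log2 differences were 0.01 and 0.03. At an unadjusted p under 0.05 (edgeR) there were 2 in each line, and DESeq2 and limma voom also called 0. Between lines 3 were higher and 2 lower, against 39.7% of all genes called. GNAQ (ENSDARG00000011487), a G protein subunit, was higher in the null line at 0.32 ± 0.06 (adjusted p = 0.000436, edgeR's quasi-likelihood test).

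Among 19 other tested KLF family genes, 0 were called with TCDD in either line, against 0.856% and 1.18% of all genes. The median differences were 0 for wild-type and 0.05 for null embryos. At an unadjusted p under 0.05 (edgeR) there were 2 and 1, and DESeq2 and limma voom also called 0. The lowest adjusted p, seen after the values were known, was that of klf13 in wild type, at 0.48 ± 0.12 (8.94 to 12.5 CPM, adjusted p = 0.0785, edgeR's quasi-likelihood test). In ahrra-null its difference was 0.09 ± 0.11. Its interaction was not called by edgeR, so an unlike response of the lines is not shown for it. Between lines, averaged over exposures, 4 were called as higher and 1 as lower, against 19.3% and 20.4% of all genes. KLF3 (ENSDARG00000015495), a transcriptional repressor, was higher in the null line by 0.41 ± 0.10 (adjusted p = 0.00502, edgeR). KLF9 (ENSDARG00000068194), known as a target of glucocorticoid and thyroid hormone receptors, was higher by 1.00 ± 0.27 (adjusted p = 0.0121, edgeR), from 3.73 to 7.42 CPM. Its libraries were uneven, at 1.94 to 5.49 CPM in wild-type DMSO and 5.71 to 9.62 CPM in ahrra-null DMSO. The other 3 were KLF6 at 0.10, KLF4 at 0.43 and KLF11 (ENSDARG00000030844) at -0.14. KLF4, another flow-responsive factor of endothelium in mammals, was outside the naming rule and is named here after its value was seen. The KLF6 call was lost in 6 of 18 alternative settings (adjusted p up to 0.094, without wild-type TCDD replicate 8) and the KLF11 call in 10 (up to 0.129, without wild-type DMSO replicate 4).

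The next list held 16 tested genes that sense flow or carry its signal toward klf2, such as channels, polycystins and the MEF2 cascade. Of these, 0 were called with TCDD in either line (medians 0.04 and 0.03), against 0.856% and 1.18% of all genes. With shares this low, 0 calls is a usual outcome for a list of this length. At an unadjusted p under 0.05 (edgeR) there were 1 in wild type and 0 in ahrra-null, DESeq2 called 0, and limma voom called 1 in wild type. Between lines, MAPK7 (ENSDARG00000023110), the kinase ERK5 that activates MEF2 upstream of KLF2 in mammalian endothelium, was higher in the null line by 0.30 ± 0.06 (adjusted p = 0.000127, edgeR's quasi-likelihood test). pkd1a (ENSDARG00000030417), a polycystin, was lower (-0.22 ± 0.06, adjusted p = 0.00493, same edgeR test). These were the 2 calls of the 16, against 39.7% of all genes.

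**Figure D4:**
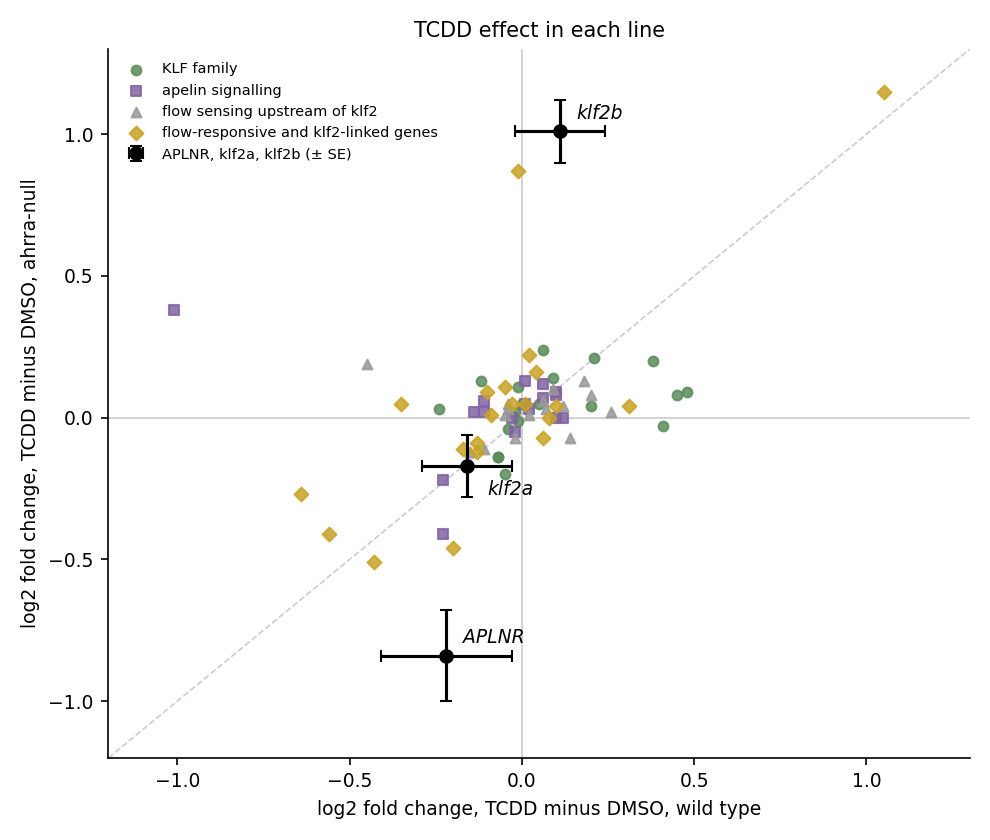
Log2 fold change with TCDD in ahrra-null (vertical) against wild type (horizontal) for the genes of 4 lists (coloured symbols) and for APLNR, klf2a and klf2b (black, bars ± SE); the dashed line marks equal effects. klf2b lies at 0.11 and 1.01, APLNR at -0.22 and -0.84 and klf2a at -0.16 and -0.17. Most listed genes lie near 0 in both lines, but APLNR and klf2b were picked with their differences in view.

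Of 21 tested flow-responsive and klf2-linked genes, 1 rose in wild type and 2 rose in ahrra-null with TCDD, where 0.481% and 0.815% of all genes rose. None of the 21 was called as lower by edgeR, which had 3 and 6 genes at an unadjusted p under 0.05 in either direction, while DESeq2 called 2 in each line and limma voom 3 in each. edn1 (ENSDARG00000036912) encodes the vasoconstrictor peptide endothelin-1, whose gene is repressed by KLF2 in cultured human endothelium. It measured 3.79, 3.37 and 3.73 CPM in wild-type DMSO and 3.69, 3.26 and 3.85 CPM in wild-type TCDD. In ahrra-null it measured 3.26, 3.84, 2.64 and 3.84 CPM with DMSO and 7.40, 6.00, 4.71 and 6.85 CPM with TCDD, and these groups did not overlap. It rose in ahrra-null by 0.87 ± 0.14 (adjusted p = 0.00129, edgeR's quasi-likelihood test), and the difference in wild type was -0.01 ± 0.18 (adjusted p = 0.999, edgeR). The interaction of 0.88 ± 0.23 was not called (adjusted p = 0.809, edgeR), so an unlike response of the lines is not shown for it.

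CXCR4 (ENSDARG00000057633), a chemokine receptor gene that falls under flow in zebrafish vessels, rose in both lines. It measured 2.83, 2.91 and 2.27 CPM in wild-type DMSO and 5.98, 5.44 and 5.08 CPM in wild-type TCDD (1.05 ± 0.17, adjusted p = 0.00106, edgeR's quasi-likelihood test). In ahrra-null it went from 1.89, 2.94, 2.42 and 2.84 CPM to 5.69, 6.17, 4.59 and 5.95 CPM (1.15 ± 0.15, adjusted p = 4.38e-05, edgeR). The exposures did not overlap in either line. A second gene of the same symbol, ENSDARG00000041959, differed by -0.13 and -0.12 and was not called.

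Between lines, averaged over exposures, 5 of the 21 were called as higher and 2 as lower, against 19.3% and 20.4% of all genes. NFATC1 (ENSDARG00000036168), a transcription factor of the valve-forming endocardium, was higher in the null line by 0.46 ± 0.09 (adjusted p = 0.000354, edgeR's quasi-likelihood test). The adhesion gene vcam1b was higher by 0.23 (adjusted p = 0.00356, edgeR). FN1 (ENSDARG00000006526), a fibronectin gene, was lower (-0.62 ± 0.11, adjusted p = 0.001, edgeR), from 72.5 to 46.3 CPM. angpt2b, an angiopoietin, was lower (-0.55, adjusted p = 0.0144, edgeR), a call that leaving out wild-type DMSO replicate 3 ended (0.0558).

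The endothelium itself was read from marker genes. kdrl, cdh5, TIE1 and FLI1 had 438 to 712, 627 to 869, 179 to 343 and 428 to 639 counts per library. With TCDD they differed by -0.03, 0.01, 0.07 and 0.04 in wild type and by 0.04, 0.05, 0.21 and -0.09 in ahrra-null, and none was called. Over 23 tested pan-endothelial genes the summed level was 335 to 356 CPM in wild-type DMSO, 332 to 349 in wild-type TCDD, 348 to 359 in ahrra-null DMSO and 340 to 365 in ahrra-null TCDD, and these ranges overlapped. Between lines, averaged over exposures, 2 of the 23 were called as higher and 1 as lower, against 19.3% and 20.4% of all genes. The lower one was TIE1, with means of 13.5 and 14.1 CPM in wild-type DMSO and TCDD. Its ahrra-null means were 11.1 CPM with DMSO and 12.8 CPM with TCDD. The median log2 difference of the list with TCDD was 0.04 in wild type and -0.06 in ahrra-null, beside -0.84 for APLNR and 1.01 for klf2b in ahrra-null. APLNR and klf2b were picked with these differences in view, so their larger size is no result. Which cells of the embryos held their reads was not measured. The defining marker pecam1 was not matched to a gene ID.

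Single genes of the pan-endothelial list were called, while its summed level was not tested. With TCDD 2 of the 23 fell in wild-type embryos, where 0.375% of all genes fell, and 1 rose in null embryos, where 0.815% rose. plvapb (ENSDARG00000045003), a component of the diaphragms of endothelial pores, fell in wild type from 25.9, 24.9 and 24.8 CPM to 17.3, 16.6 and 18.6 CPM (-0.53 ± 0.09, adjusted p = 0.00151, edgeR's quasi-likelihood test). In ahrra-null its exposures overlapped at 18.9 to 24.1 CPM and the difference was -0.05 ± 0.08. No gene of the list was called for the interaction by edgeR, so an unlike response of the lines is not shown for plvapb, clec14a or plvapa. clec14a, an endothelial lectin gene, passed the threshold narrowly in wild type (-0.43 ± 0.11, adjusted p = 0.0499, edgeR) and missed it in 13 of 19 alternative settings, with adjusted p up to 0.248 when wild-type TCDD replicate 6 was left out. plvapa rose in ahrra-null (0.63 ± 0.15, adjusted p = 0.0293, edgeR), and the call was lost in 6 of 19 settings: with DESeq2 and when ahrra-null DMSO replicate 10, 11 or 12 or TCDD replicate 13 or 14 was left out (adjusted p up to 0.124).

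Among 17 artery, vein and lymphatic genes, 1 was called with TCDD in each line, against 0.856% and 1.18% of all genes. In both lines this was stab2 (ENSDARG00000045748), a hyaluronan scavenger receptor of veins and lymphatics. It fell from 17.3, 15.4 and 17.9 CPM to 10.6, 11.1 and 10.5 CPM in wild type (-0.64 ± 0.10, adjusted p = 0.000776, edgeR's quasi-likelihood test). In ahrra-null it fell from 15.5, 13.8, 13.8 and 14.4 CPM to 9.33, 9.33, 12.1 and 10.1 CPM (-0.49 ± 0.09, adjusted p = 0.00329, edgeR). The groups did not overlap in either line. Of 23 VEGF, Notch and angiopoietin genes 1 rose and 2 fell in each line (0.481% and 0.815% of all genes rose and 0.375% and 0.361% fell), CXCR4 being the rise, and the falls being the chemokine ligand genes CXCL12 (-0.46 and -0.30) and cxcl12b (-0.75 and -0.84). All of these calls were thus chemokine or chemokine receptor genes. CXCR4 is also on the list of flow-responsive genes and is counted in both.

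**Figure D5:**
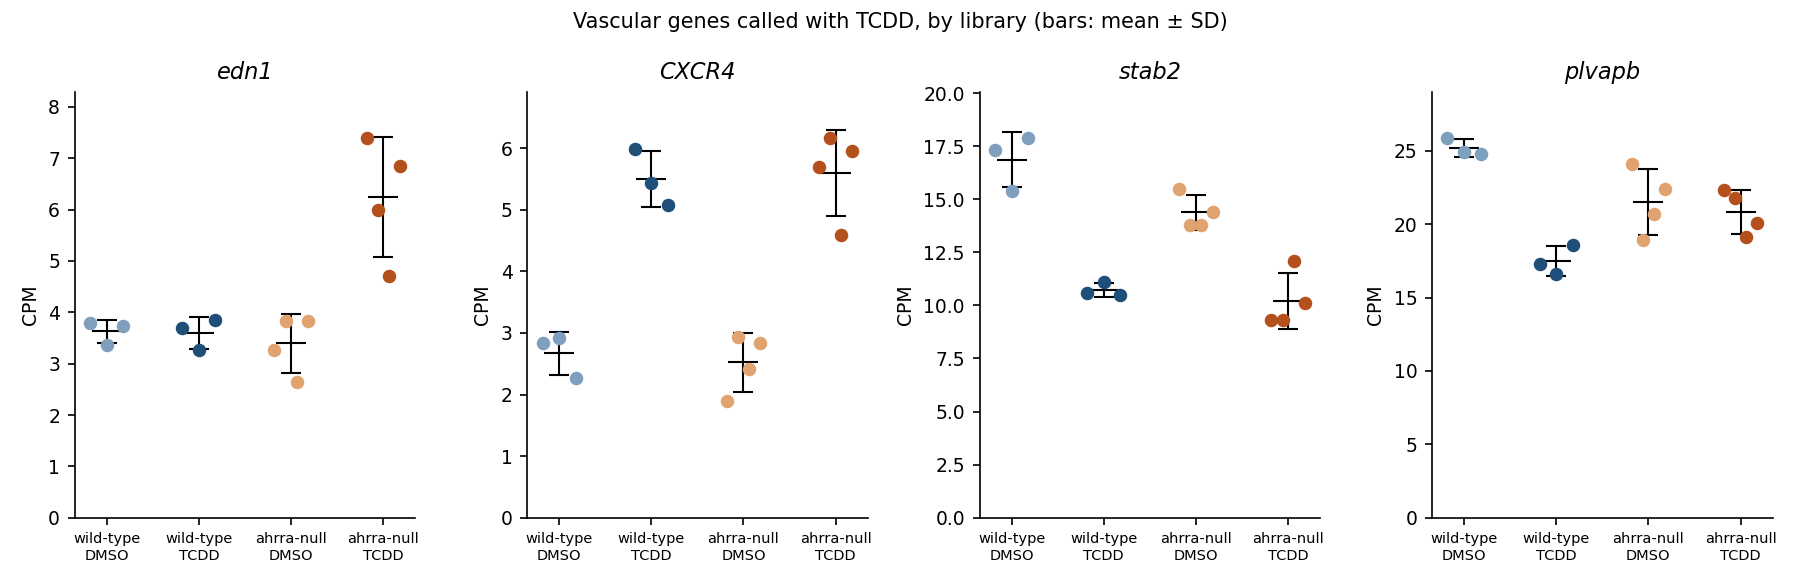
CPM of edn1, CXCR4, stab2 and plvapb in each library (points), with group means and SD (bars); each panel has its own axis starting at 0. With TCDD, CXCR4 is higher and stab2 lower in both lines, edn1 is higher in ahrra-null at 4.71 to 7.40 CPM, and plvapb is lower in wild type at 16.6 to 18.6 CPM.

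Other cell types of the circulation were read in the same way. Of 14 tested heart muscle genes 4 fell with TCDD in wild type (median -0.52) and 1 in ahrra-null (median -0.16), where 0.375% and 0.361% of all genes fell. Their summed level was 193 to 248 CPM with DMSO and 156 to 179 CPM with TCDD in wild-type embryos, and 191 to 235 and 172 to 221 CPM in null embryos. nppa (ENSDARG00000052960), the atrial natriuretic peptide gene, fell in both lines (-1.29 ± 0.22 with adjusted p = 0.00202 and -0.97 ± 0.18 with adjusted p = 0.00546, edgeR's quasi-likelihood test). Of the 14 heart genes 3 had a positive difference in wild type and 2 in ahrra-null. None of them was called for the interaction by edgeR, so an unlike response of the lines is not shown.

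Mural cell genes summed to 289 to 328, 272 to 289, 285 to 298 and 269 to 287 CPM in wild-type DMSO, wild-type TCDD, ahrra-null DMSO and ahrra-null TCDD. Of 12 tested genes 1 was called as lower in each line, against 0.375% and 0.361% of all genes. These were MYH11 in wild type and FOXC1 in ahrra-null. The FOXC1 mean went from 28.7 to 24.1 CPM in wild type, where it was not called, and from 28.8 to 23.9 CPM in ahrra-null. The MYH11 mean went from 12.3 to 7.87 CPM in wild type and from 9.8 to 8.47 CPM in ahrra-null, where it was not called. MYH11 lost its call when wild-type DMSO replicate 3 or TCDD replicate 6 or 8 was left out (adjusted p up to 0.07, edgeR's quasi-likelihood test), and FOXC1 lost its call in 11 of 19 alternative settings (up to 0.123, without ahrra-null TCDD replicate 14). Of 10 tested erythroid genes 0 were called in wild type (0 also at an unadjusted p under 0.05 in edgeR, and 0 by DESeq2 and limma voom). In ahrra-null alas2, the first enzyme of heme synthesis in red cells, fell, against the same shares of falls over all genes. Its mean went from 60.6 to 47.4 CPM in ahrra-null, and was 29.2 CPM with DMSO and 31.7 CPM with TCDD in wild type. Averaged over exposures alas2 was called as higher in the null line, as were 19.3% of all genes. The sums of the erythroid genes were 637 to 754, 629 to 752, 572 to 716 and 547 to 644 CPM in the same order of groups. The defining globin gene hbae1.1 had at most 3 counts in a library. Of 12 neutrophil and macrophage genes 1 fell in wild type, and 1 rose and 1 fell in ahrra-null, against the same shares of falls and 0.815% of rises over all genes in ahrra-null. Their sums were 66.4 to 81.3, 72.0 to 75.5, 70 to 75.6 and 58.2 to 74.6 CPM. The lymphatic marker lyve1b was scarce, at 15 to 31 counts. The part of these cell types in the APLNR and klf2 differences was not tested.

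Genes whose levels ran with those of each of the 3 were looked up over the 14 libraries. The 15379 genes searched were tested genes of average log2 CPM at least 1 whose symbol was no clone or locus name. Only the highest positive correlations were taken. Over all 14 libraries these lean on the group means, so group means like those of the 3 genes follow from the search. For klf2a the closest were CEBPD (r = 0.95), nfkbiab (0.95), nfkbiaa (0.94), cdkn1a (0.94) and PPP1R3C (0.93). CEBPD encodes a transcription factor of stress and acute phase responses, nfkbiab and nfkbiaa encode inhibitors of NF-kB, and cdkn1a encodes the cell cycle inhibitor p21. Like klf2a they stood higher in the null line, with averages of 36.2 and 55.2 CPM for CEBPD and 3.02 and 6.17 CPM for cdkn1a in wild type and ahrra-null. nfkbiab was also among the 5 genes closest to klf2a in the deviations from the group means (r = 0.90), behind SUGT1 (0.95), hhipl1 (0.92) and rapgef3 (0.90).

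For klf2b the closest were CYP24A1 (r = 0.90), SLC7A8 (0.88), STC2 (0.88), LUZP1 (0.86) and RALA (0.85). CYP24A1 encodes the enzyme that breaks down active vitamin D, and STC2 encodes a stanniocalcin, a hormone family known from calcium balance in fish. STC2 was at 23.2 CPM with DMSO and 25.1 CPM with TCDD in wild-type embryos and at 18.5 and 24.3 CPM in null embryos, so that ahrra-null DMSO was lowest, as for klf2b. CYP24A1 was at 4.98 and 7.62 CPM in wild-type embryos and at 2.96 and 7.99 CPM in null embryos. None of these was among the 5 closest in the deviations from group means, which were fam217bb (0.92), CLDND1 (0.89), LRFN1 (0.86), sema3ga (0.85) and CLDN11 (0.85).

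For APLNR the closest were FAM110B (r = 0.88), BIRC5 (0.87), RABGGTA (0.87), acana (0.86) and PRSS35 (0.86). BIRC5 encodes survivin, a protein of dividing cells, and acana encodes the cartilage proteoglycan aggrecan. BIRC5 was at 8.83 and 8.57 CPM in wild-type embryos and at 10.7 and 9.18 CPM in null embryos, so its ahrra-null DMSO mean was also the highest of the 4, by less than for APLNR. In the deviations from group means the closest were paxx (0.92), EVA1A (0.89) and palm2akap2 (0.88). These correlations are over libraries that share groups and scaling, and the genes are the top of a large search.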

How the data were processed

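RNA-seq of 14 libraries of whole zebrafish embryos was used. Per the labels' protocols, total RNA came from a BioRad Aurum kit and the TruSeq libraries were not stranded, so reads of overlapping antisense genes cannot be told apart. The authors deposited raw whole-number counts for each Ensembl gene. cutadapt, TopHat2, SAMtools, HTSeq, edgeR and the build GRCz10 are named in the submitters' processing notes. Their versions, the annotation and the counting settings were not stated in the sources used. No annotation of that build was used, so no coordinates or gene lengths are given and levels are not corrected for length. The sum of klf2a and klf2b and the shares of reads among paralogs or receptors therefore also depend on transcript length.

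Groups came from the sample titles. filterByExpr at a minimum count of 10 kept 21606 of 32105 genes, with 99.9% of counts. edgeR's quasi-likelihood model (robust, TMM) was fitted over the 4 groups, and p-values were adjusted by Benjamini-Hochberg over all tested genes. The common biological coefficient of variation was 7.19%. SE was approximated as the log2 fold change over the root of F. Fold changes used a prior count of 0.125 and log2 CPM for correlations a prior count of 2. Counting intervals cover counting error only. In 18 pairs of replicates chi-square per degree of freedom was at least 2.52, so no pair differed by less than the sampling noise. The tools were edgeR 4.0.16, DESeq2 1.42.0 and limma 3.58.1 in R 4.3.3.

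The 3 genes and the 12 gene lists, written from general knowledge, were chosen with earlier results of these data known. The lists held 188 symbols, of which 178 were found as 192 gene IDs in a table that named 26269 IDs. Where a listed symbol was absent, its paralog letter or number was dropped and every ID of the remaining symbol was taken. Such IDs, as for MYH11, FN1, CXCR4 and MFAP4, may include paralogs other than the listed gene. pecam1, etv2, vmhc, 3 embryonic beta globins, mpx, mme, klf10 and klf18 were not matched. Named genes are all receptors and ligands of the apelin list, up to 4 called genes of each list and contrast with the smallest adjusted p, the checks CYP1A1 and ahrra, and the 5 most correlated genes of each of the 3. Not all of them are described. Averaged over exposures, 5 of 17 artery, vein and lymphatic genes were called as higher in the null line and 0 as lower. Those counts were 7 and 1 of 23 VEGF, Notch and angiopoietin genes and 3 and 0 of 14 heart muscle genes. They were 1 and 4 of 12 mural, 2 and 3 of 10 erythroid and 0 and 2 of 12 neutrophil and macrophage genes. Over all genes the shares were 19.3% and 20.4%. Alternatives were RLE scaling, DESeq2, limma voom with quality weights, no filter beyond 1 read, a fit of only the compared groups, and leaving out each library. A result on a gene of the apelin list is not reported here.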

Additional observations from a re-analysis of the deposited data

Results flagged for a closer look

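In the groups of 4 libraries, 118 pairs of a named gene and a group were looked at, and in 10 of them 1 library stood apart from the other 3 by Dixon's criterion. Chance alone sets apart about 1 in 20 groups. APLNR, klf2a and klf2b were not among them.

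Replicate 15 of ahrra-null TCDD was the library in 6 of the 10. It held 465 CPM of CYP1A1 against 1060 to 1100 CPM elsewhere in the group, cyp1c1 was 216 CPM against 387 to 421 CPM, and cyp1c2 was 39.9 CPM against 84.6 to 92.4 CPM. TIE1 was 10.4 CPM against 13.4 to 13.9 CPM, cxcl12b was 35.3 CPM against 25.4 to 26.4 CPM, and vcam1b was 61.2 CPM against 56.9 to 57.0 CPM. Without this library the log2 difference with TCDD in ahrra-null was -0.93 for APLNR, -0.18 for klf2a and 1.09 for klf2b, each at least as far from 0 as with it. In the same library klf2b was 41.2 CPM, the lowest of its group.

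In other libraries of ahrra-null TCDD, FOXC1 was 24.5 CPM in replicate 16 against 23.7 CPM in the others, KLF15 was 10.8 CPM in replicate 13 against 7.50 to 8.04 CPM, and MFAP4 (ENSDARG00000088745) was 0.833 CPM in replicate 14 against 1.34 to 1.42 CPM. In ahrra-null DMSO, klf6b was 0.604 CPM in replicate 11 against 0.458 to 0.473 CPM.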

How the results depend on the processing

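The averaged line differences of klf2a and klf2b kept their direction and call under all 18 alternatives run. The alternatives reuse the same libraries, so they do not free these calls from the choice of genes. For klf2b the line difference ranged from -0.81 to -0.70 with DMSO and from 0.02 to 0.24 with TCDD. Differences near 0 changed sign, the APLNR line difference with TCDD running from -0.12 to 0.11 and the klf2a interaction from -0.14 to 0.07. The ahrra-null TCDD difference ranged from -0.94 to -0.74 for APLNR and from 0.88 to 1.09 for klf2b. The averaged line difference ranged from 0.53 to 0.63 for klf2a (adjusted p at most 0.000164) and from -0.36 to -0.25 for klf2b (at most 0.0347). That of APLNR ranged from 0.24 to 0.36 when single libraries were left out, with adjusted p of 0.0377 to 0.189 over all alternatives. Of 146 other results on named genes, 88 kept their side of the threshold in every alternative.

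The genes called with TCDD in wild type numbered 185, and 351 with limma voom. They numbered 82 to 388 when single libraries were left out: 89 without wild-type DMSO replicate 3, 388 without DMSO replicate 4, 82 without TCDD replicate 6 and 94 without TCDD replicate 8. In ahrra-null 254 were called, and 141 to 374 with a library left out: 158 and 167 without DMSO replicates 11 and 12, and 141, 148 and 149 without TCDD replicates 13, 14 and 16. The interaction had 7 calls with DESeq2, 2 with limma voom and 0 to 10 with a library left out, 10 without wild-type DMSO replicate 4. The line difference with DMSO had 2844 to 5019 calls, 2844 without wild-type DMSO replicate 2, beside 4670 with all libraries. The cause was not tested. Counting error alone was 10.2 to 18% for APLNR, which limits how far its libraries can be ranked. No paired analysis was possible because the replicate numbers in the titles differ between the groups.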
